A study of Homo sapiens with 6 samples.

Results

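CDKN2B-AS1, also called ANRIL, is a long noncoding RNA (lncRNA) transcribed from the 9p21 region of chromosome 9, where the tumour suppressor genes CDKN2A and CDKN2B lie. 1 of the 1437 lncRNA transcripts in the deposited table, CDKN2B-AS1-203 (ENST00000428597), belonged to it. It was found as the Ensembl transcript whose symbol, without its isoform number, is CDKN2B-AS1. The study compared lncRNA expression by RNA sequencing in 3 samples of HBE (also spelled HEB in the labels), cells from normal lung epithelium, and 3 of A549, a lung adenocarcinoma line. Neither line carried a treatment or an engineered allele in the labels. The medium differed with the line, RPMI-1640 for HBE and DMEM for A549, each with fetal bovine serum and antibiotics. Each group is 1 cell line, how HBE was immortalised is not given, and nothing in the labels says that its samples were separate cultures. The p-values may therefore reflect technical spread alone. As background, A549 is widely described as having lost CDKN2A at 9p21 by homozygous deletion. DNA copy number was not analysed here.

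As background, CDKN2A and CDKN2B encode the cyclin-dependent kinase inhibitors p16 and p15, and CDKN2A also encodes ARF, which stabilises p53. These proteins hold cells in the G1 phase and act in senescence. CDKN2B-AS1 runs through the same region on the other strand, starts beside the ARF promoter, and has been described as binding Polycomb proteins such as CBX7 and SUZ12, which silence CDKN2A and CDKN2B. Variants in the region are known for their link to coronary disease and several cancers, and the RNA is spliced into many linear and circular forms.

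CDKN2B-AS1-203 is the longest of the 21 isoforms of the gene in GENCODE release 29. It lies on the plus strand of chromosome 9 from 21994791 to 22121095 (GRCh38), spans 126305 bases and joins 19 exons into an RNA of 3835 bases. The other 20 isoforms measure 602 to 2660 bases. CDKN2B lies on the minus strand from 22002903 to 22009363, inside the first intron of 34271 bases, and no exon of CDKN2B lies opposite the transcript. CDKN2A, also on the minus strand, ends its span at 21995301, so that 341 of the 371 bases of exon 1 lie opposite CDKN2A exons. On the same strand, 475 bases in exons 2 and 3 overlap exons of AL359922.1, a gene that GENCODE annotates as protein-coding. The sources used here do not state if reads were counted by strand, and without strand reads from CDKN2A could not be told apart from those of exon 1. The opposed stretch begins at base 31 of the RNA, as the first 120 bases of exon 1 (chr9:21994791-21994910, GRCh38, plus strand, RNA written as DNA) show, with capitals for bases opposite a CDKN2A exon.
exon 1, first 120 bases: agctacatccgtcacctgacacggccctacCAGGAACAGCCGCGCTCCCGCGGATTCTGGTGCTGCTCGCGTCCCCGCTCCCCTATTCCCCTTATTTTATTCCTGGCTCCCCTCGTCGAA

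**Figure D1:**
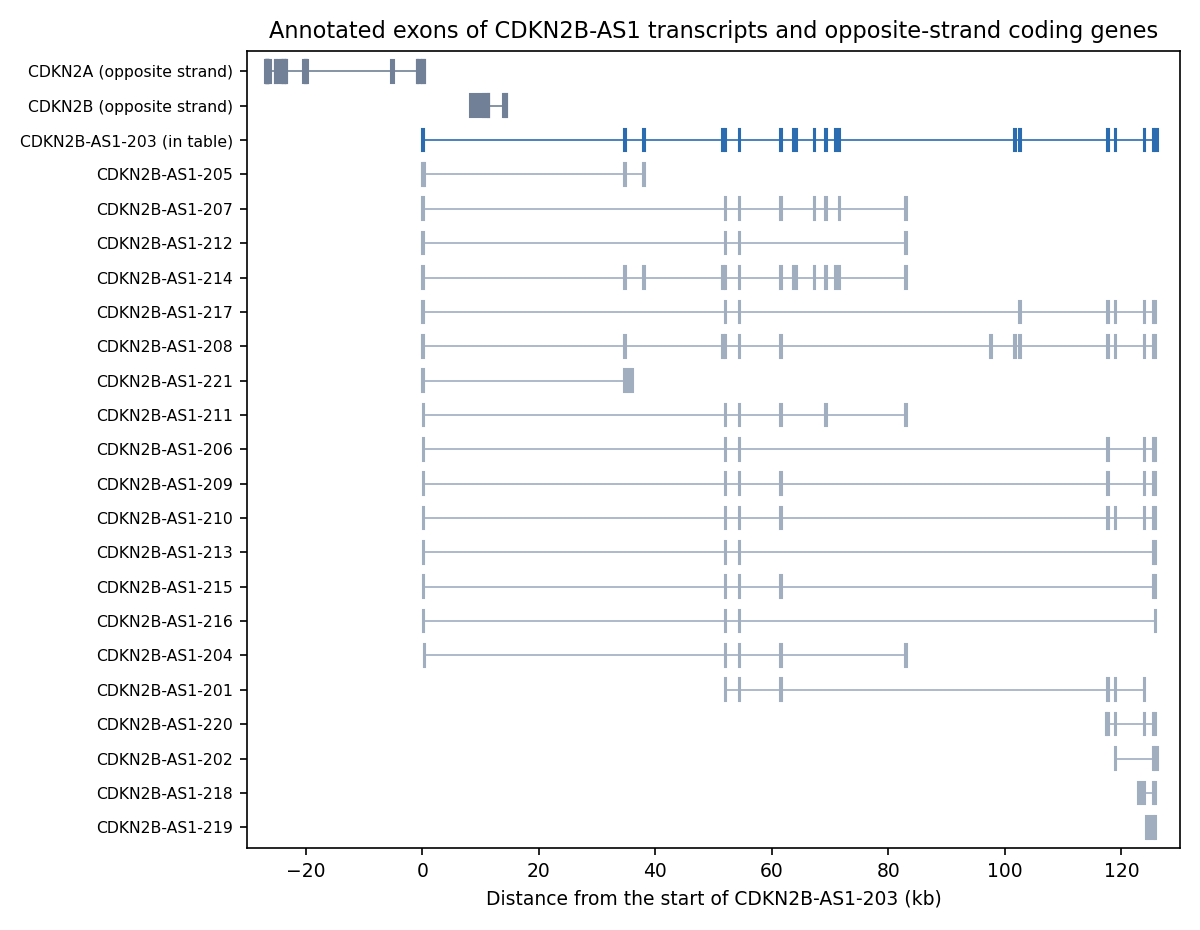
Annotated exons (blocks) of CDKN2B-AS1-203, of the other 20 CDKN2B-AS1 isoforms and, on the opposite strand, of CDKN2A and CDKN2B, against the distance from the start of CDKN2B-AS1-203 in kb. Blocks are drawn at least 0.25 kb wide, the start of the transcript lies opposite CDKN2A, and its 19 exons reach across the whole span of 126305 bases.

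The RNA holds no base of its own among the annotated isoforms: 0 of its 3835 bases fall outside the exons of the other 20. It differs by how exons are joined. Of its 18 splice junctions 17 occur in at least 1 other isoform, and the junction of exon 12 to exon 13, across an intron of 30018 bases, occurs in no other. From the same end of exon 12, isoforms CDKN2B-AS1-207 and CDKN2B-AS1-214 splice over 11325 bases into a last exon of 212 bases. Exons are numbered here as in CDKN2B-AS1-203, while CDKN2B-AS1-207 has 8 exons in all. The 40 bases across each junction are shown because they separate the form in the table from 2 isoforms that end earlier, with the downstream exon in capitals.
CDKN2B-AS1-203, exon 12 to 13 (22066353 to 22096372): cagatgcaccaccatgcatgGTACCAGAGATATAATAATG
CDKN2B-AS1-207 and CDKN2B-AS1-214, exon 12 to the last exon (22066353 to 22077679): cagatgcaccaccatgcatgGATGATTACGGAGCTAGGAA
The table gives 1 value per transcript and none per exon or junction, so the share of the value that came from reads over the first junction was not analysed here. The values therefore rest on how reads were divided among isoforms. The other 20 together cover all of this sequence, but none of them does so alone. The other 20 isoforms are not rows of the table and were not analysed here. Assembled transcripts of the table have no position, and any of them may lie in the region. Sequence at 97% identity or more in genes elsewhere covered 185 bases, or 4.82%, of the RNA.

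The start of the transcript is shown because it is shared with the ARF end of CDKN2A. RefSeq gives the 300 bases around it, 250 before and 50 from the start, at chr9:21994541-21994840 (GRCh38.p14, plus strand), with CG dinucleotides in capitals.
promoter window of CDKN2B-AS1: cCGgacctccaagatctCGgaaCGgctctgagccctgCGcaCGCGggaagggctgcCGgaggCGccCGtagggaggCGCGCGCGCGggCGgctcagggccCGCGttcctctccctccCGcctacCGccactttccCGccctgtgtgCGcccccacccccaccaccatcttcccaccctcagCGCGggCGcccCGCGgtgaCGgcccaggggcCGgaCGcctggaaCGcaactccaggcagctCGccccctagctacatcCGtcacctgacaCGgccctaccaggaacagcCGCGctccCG
The window holds 36 CG dinucleotides, against a median of 14 over 35116 promoter windows of the same length, of which 12.7% hold at least as many. G and C make up 74.0% of it, against a median of 58.7%. CG is the same on both strands, and DNA methylation was not analysed here.

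CDKN2B-AS1-203 was present in every HBE sample at a low level and had no count in any A549 sample. HBE gave 92, 51 and 22 estimated counts and A549 gave 0, 0 and 0, each in the order of replicates 1, 2 and 3, an order kept for all values below. All HBE samples were above all A549 samples, and replicate 1 was the highest and replicate 3 the lowest of HBE. Scaled by library size, the level was 1.64, 0.984 and 0.446 CPM in the HBE samples, a mean of 1.02 ± 0.596 CPM (SD, n = 3). Per kilobase, the deposited values were 0.426, 0.254 and 0.116 FPKM, which also allows for transcript length, a mean of 0.265 ± 0.155 FPKM (SD, n = 3), and 0 in all A549 samples. In bulk RNA, fewer cells that make the transcript and less of it per cell cannot be told apart.

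**Figure D2:**
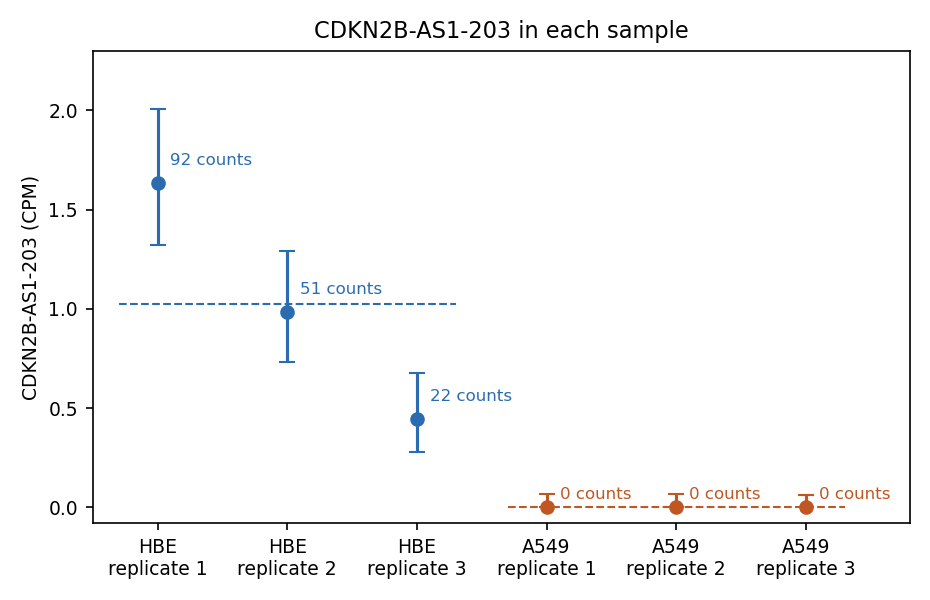
Level of CDKN2B-AS1-203 in CPM in each sample, with exact 95% Poisson intervals that cover counting error only and dashed lines at the mean of each line. The HBE samples, at 0.446 to 1.64 CPM, lie above the A549 samples, all at 0.

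A count of 0 allows up to 3 counts, or 0.0520 to 0.0541 CPM per A549 library, a limit that covers counting error only. Against 3 counts over all A549 samples together, CDKN2B-AS1-203 was at least 57.6-fold lower in A549 than the HBE mean. This bound leaves out the spread between HBE samples. The bound was at least 37.95-fold without A549 replicate 3, which leaves fewer libraries behind the limit, and at least 40.3-fold without HBE replicate 1, the highest sample. Against 3 counts in each A549 sample, the bound was 19.2-fold. In a fit over all 1437 transcripts the adjusted p was 8.54e-06 (edgeR quasi-likelihood test with Benjamini-Hochberg adjustment, lower in all 3 A549 samples than in each HBE sample). Of all transcripts in the table, 52.3% passed the threshold of 0.05 as lower in A549, 51.8% were lower without overlap between the lines and 27.7% had counts in HBE and none in A549. The authors had selected the table for a difference on the same samples, so the call is not independent evidence. In the authors' deposited table the log2 fold change of A549 over HBE was -8.735 and the p-value 5.84e-05. Neither that value nor a fitted fold change measures the size of the difference, because A549 is at 0.

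The exact 95% Poisson intervals of the level were 1.32 to 2.01 CPM in replicate 1, 0.732 to 1.29 CPM in replicate 2 and 0.279 to 0.675 CPM in replicate 3, and no pair of them overlapped. These intervals cover counting error only and leave out the spread between samples and the division of reads among isoforms. The highest CPM was 3.67 times the lowest, and replicate 1 held 55.8% of the HBE counts. The SD was 58.4% of the mean CPM. Among 309 transcripts with between 82.5 and 330 HBE counts, the median of this ratio was 44.2%, and 69.9% of them had a lower one. The same order of HBE samples, replicate 1 highest and replicate 3 lowest, was found in 66 of the 398 transcripts with no count in A549, or 16.6%.

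Among those 398 transcripts, CDKN2B-AS1-203 ranked 58th by HBE counts, with 165 against a median of 65.0. By mean FPKM, which allows for its length, it ranked 295th, at 0.265 against a median of 0.399 FPKM. Its rank therefore depended on the scale. At 3835 bases it was 67th in length of the 688 annotated transcripts of the table, whose median length was 1573 bases. Only 1 annotated transcript had more exons, 38 against its 19, and the median was 2. Of the 1026 transcripts with any count in HBE, 74.4% had fewer HBE counts and 34.8% a lower mean FPKM.

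**Figure D3:**
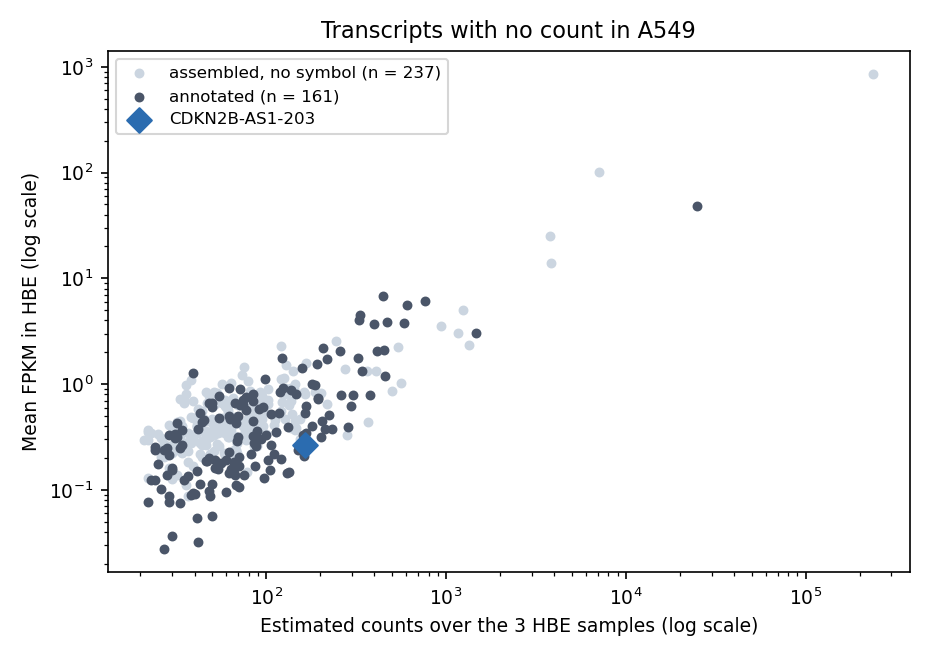
Mean HBE level in FPKM against estimated counts summed over the 3 HBE samples, both on log scales, for the 398 transcripts with no count in A549. CDKN2B-AS1-203 (diamond) lies to the right of the median of 65.0 counts, at 165, and below the median level of 0.399 FPKM.

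No other gene of the 9p21 region was among the annotated transcripts of the table. None of the 24 other genes in a list of 9p21 and 9p22 neighbours, among them CDKN2A, CDKN2B, MTAP and the lncRNA host MIR31HG, had a transcript there, and so they were not analysed here. 0 of the 26 other annotated chromosome 9 transcripts lay within 10 Mb, and assembled transcripts of the table have no position. The nearest on the side of lower coordinates, AL354707.1-201, was 15.3 Mb away, with counts of 41, 62 and 153 for HBE and 2, 0 and 10 for A549. The log2 fold change of A549 over HBE was -4.53 (SE 0.951), and edgeR with Benjamini-Hochberg adjustment put its p at 8.26e-05. The nearest on the other side, AL133410.1-202, was 13.7 Mb away, absent from all HBE counts and at 26, 25 and 50 for A549, at least 31.2-fold higher there. The nearest neighbours on the 2 sides thus differed in direction, and AL162411.1-201, also 15.3 Mb away on the lower side, had no count in HBE and was at least 45.4-fold higher in A549.

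On the short arm, which carries 9p21, the other 7 annotated transcripts of the table belonged to 5 genes. Of the 7 transcripts, 6 were higher and 1 lower in A549. None of the 7 was without counts in A549, and 4 had no count in HBE. The 6 higher transcripts include 4 of GLIDR and BX088651.4. Each of these 4 is covered over 57.1% to 100% of its length by the other gene at 97% identity or more, so their counts are uncertain. On the long arm 3 were higher and 16 lower, of which 6 had no count in A549. Of the whole table, 47.6% passed as higher, 52.3% passed as lower and 27.7% had no count in A549. Of its 688 annotated transcripts, 161 had no count in A549. All 26 passed the threshold, against 99.9% of the whole table. CDKN2B-AS1-203 was the only annotated transcript of the table on the short arm with no count in A549, and assembled transcripts could not be placed.

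**Figure D4:**
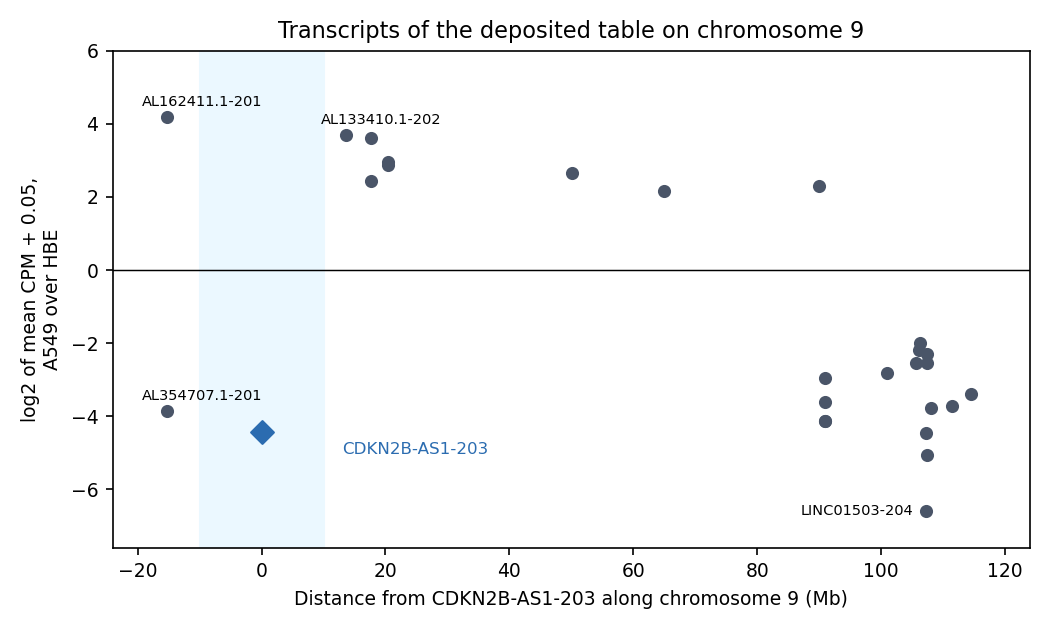
Log2 ratio of mean CPM in A549 over HBE, with 0.05 CPM added to each mean, against the distance from CDKN2B-AS1-203 in Mb. Points are all 27 annotated chromosome 9 transcripts of the table, and the shaded band marks 10 Mb on either side. The band holds CDKN2B-AS1-203 (diamond) alone, and the nearest transcripts on either side lie above and below 0.

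By its profile over the 6 samples, CDKN2B-AS1-203 was closest to AL353593.1-201, at a Euclidean distance of 0.386 on log2(FPKM + 0.1), against a median distance of 4.0 over 687 annotated transcripts. AL353593.1-201, an antisense transcript on chromosome 1, measured 0.469, 0.304 and 0.168 FPKM in the HBE samples and 0 in those of A549. The next were C2CD4D-AS1-201 (0.534), AC069120.1-202 (0.582), SH3TC2-DT-206 (0.620) and AL158839.1-201 (0.631), each with counts in every HBE sample and none in A549. Their mean HBE levels ran from 0.193 ± 0.0796 FPKM for AC069120.1-202 to 0.332 ± 0.249 FPKM for C2CD4D-AS1-201 (SD, n = 3 each). Each of the 5 means lay within 1 SD of that of CDKN2B-AS1-203. The 5 were chosen by distance on these same values, so this likeness is not a further result. None of the 5 is on chromosome 9.

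Other lncRNAs described as binding or guiding Polycomb proteins were represented by 24 transcripts of 13 genes, of which 8 passed as higher and 16 as lower in A549, where 47.6% and 52.3% of the whole table did. Their median log2 fold change was -7.27, or -4.48 with transcripts absent from 1 line at their bound, against -2.0 over the table by either reckoning. This median is over transcripts and counts UCA1 7 times, at log2 fold changes of -10.15 to -7.43. It therefore does not describe the 13 genes as a set, and all 8 higher transcripts belonged to other genes. 11 of the 24 had no count in A549, against 27.7% of the table and 161 of its 688 annotated transcripts. 7 of these 11 were isoforms of UCA1. 3 of the 24 had no count in HBE. UCA1-222, of a bladder and lung cancer lncRNA, counted 46, 63 and 86 for HBE and none for A549, at least 70.9-fold lower there. FENDRR-205, of a lncRNA of mesenchyme and lung development, counted 53, 70 and 56 for HBE and none for A549, at least 64.4-fold lower. Neither has the order of HBE samples seen in CDKN2B-AS1-203, but others of the list do, among them UCA1-201. UCA1-223 counted 144, 225 and 45 for HBE and none for A549. AFAP1-AS1-201, which lies antisense to AFAP1, counted 1624, 2032 and 2849 for HBE against 0, 3 and 0 for A549. In the other direction, NEAT1-201, of the scaffold of paraspeckles, counted 0, 10 and 0 for HBE against 186, 89 and 245 for A549.

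Other lncRNAs described in senescence or in control of CDKN2A, CDKN2B or CDKN1A were represented by 19 transcripts of 6 genes, of which 11 passed as higher and 8 as lower in A549, against 47.6% and 52.3% of the table. The median log2 fold change was 1.39, against -2.0 over the table. All 7 UCA1 transcripts in the list, also in the Polycomb list, had no count in A549. LRRC75A-AS1 went both ways, with LRRC75A-AS1-219 lower and the other 4 of its transcripts in the table higher in A549. The remaining 7 of the 11 higher transcripts were 3 of GAS5, a snoRNA host linked to growth arrest, 2 of MIR100HG, NEAT1-201 and SNHG1-203. SNHG1-203 counted 50, 52 and 45 for HBE against 126, 110 and 150 for A549. UCA1-217 counted 31, 41 and 52 for HBE and none for A549, and UCA1-201 counted 172, 77 and 12 and none. UCA1-201 shares with CDKN2B-AS1-203 the order of the HBE samples, as does LRRC75A-AS1-205 with 243, 169 and 126 counts for HBE. UCA1-217 does not. Of the 398 transcripts with no count in A549, 16.6% had this order. LRRC75A-AS1-205, with 586, 893 and 1952 counts in A549, is not among them. The share among transcripts with counts in A549 was not analysed here.

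A list of antisense lncRNAs named for cell cycle or tumour suppressor genes had 2 transcripts besides CDKN2B-AS1-203, and both passed as lower in A549, as 52.3% of the table did. ZEB1-AS1-208, antisense to a gene of epithelial-mesenchymal transition, counted 170, 156 and 198 for HBE against 57, 47 and 77 for A549. CKMT2-AS1-207 counted 34, 17 and 22 for HBE against 4, 2 and 1 for A549. CKMT2 encodes a mitochondrial creatine kinase, and ZEB1 a transcription factor, so neither is a cell cycle inhibitor like CDKN2B.

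Markers of cell identity in the table were few, and 99.9% of all transcripts there passed the threshold. The airway epithelial list was represented by 3 transcripts of MIR205HG, which summed to 76.2 to 213 CPM in HBE and 0 in A549, and the alveolar and club list by 2 of SFTA1P, at 2.40 to 6.64 CPM in HBE and 0 in A549. The mesenchymal list had 4 transcripts, 2 higher and 2 lower in A549, at 3.97 to 5.16 CPM in HBE and 1.43 to 1.89 CPM in A549. The neural list had 3, 1 higher and 2 lower, at 1.07 to 3.26 CPM in HBE and 3.19 to 4.0 CPM in A549. The blood, endothelial and proliferation lists had 0 transcripts in the table. Their part in the difference of CDKN2B-AS1-203 was not tested, and line, medium and culture cannot be told apart. The libraries held 49376413 to 57664347 counts, of which 0.459% to 2.48% were in the table.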

How the data were processed

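RNA of 6 samples was measured, 3 per line. The submitters' processing notes name HISAT2, StringTie, DESeq2 and the build GRCh38 but no versions. For 1437 lncRNA transcripts the authors deposited estimated counts and FPKM of every sample, with a p-value and a log2 fold change per transcript. In the authors' deposited table no p-value was above 0.00997 and no absolute log2 fold change below 1.25, so the rows are a selection on these samples. Any adjustment of that p-value is not stated.

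Positions and exons came from GENCODE 29 (688 of 688 Ensembl identifiers matched). Library sizes were solved from estimated count, FPKM and transcript length, which then returned every nonzero annotated count within 1 (100% in each sample), and CPM is the estimated count divided by this size and scaled as usual. The sizes were also the scaling for edgeR 4.0.16 (R 4.3.3), used with the quasi-likelihood test on whole-number counts, no low-count filter and no replicate block, at an adjusted p of 0.05. SE was the log2 fold change over the square root of F. BLAST+ 2.17.0 sought copies. The edgeR step was tested on simulated data. The labels do not say that same-numbered samples belong together.

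Named transcripts were those of CDKN2B-AS1, chromosome 9 transcripts within 10 Mb and the nearest on each side, the 5 closest profiles, and up to 4 per list by adjusted p. NEAT1-201, SNHG1-203 and the transcripts of LRRC75A-AS1, GAS5 and MIR100HG were picked for naming once their values were known. The members and lists were chosen with earlier results of these data known. Alternatives were other scalings, tests, pseudocounts of 0.1 and 1 FPKM, a low-count filter and each sample left out.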

Additional observations from a re-analysis of the deposited data

How the results depend on the processing

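CDKN2B-AS1-203 stayed lower in A549 and past the threshold in all 13 alternatives run. Its adjusted p ran from 5.95e-08 to 0.0112, the highest with limma on log2(FPKM + 1). Most of the tested transcripts passed in every alternative too. In that limma run 1379 of 1437 passed, and 1301 of 1437 did so when edgeR was scaled by DESeq2 size factors. The rows had been selected on these samples, so passing does not set CDKN2B-AS1-203 apart from the rest of the table. DESeq2 size factors and TMM, both taken from the table, shifted all log2 fold changes by a median of 0.858 and 0.282, and the DESeq2 Wald test by 1.4. With the replicate number as a block (replicate block) the log2 fold change was -8.75 (SE 1.97), against -8.80 (SE 1.39) without it. The edgeR adjusted p was 6.40e-05 with the block and 8.54e-06 without it. With the block 1342 transcripts were past the threshold, against 1435. Same-numbered samples correlated in their deviations at 0.038, -0.086 and -0.149 over 296 transcripts, so the numbers were not treated as pairs. A filter that asked for 10 counts or more in 3 or more samples gave 941 calls, because 943 transcripts were then tested. With table totals as library sizes the HBE level was 52.0 CPM, because the table holds a small part of each library. With 3 counts set in each A549 sample the bound was 19.2-fold instead of 57.6-fold. Leaving out 1 sample gave bounds of 37.95-fold to 73.8-fold, HBE levels of 0.715 to 1.31 CPM and 1408 to 1431 calls. Because all A549 counts were 0, a level in A549 below the limit of 3 counts cannot be told apart from none at this depth.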
